A study of Sus scrofa with 2 samples.

Results

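The SLC22 genes encode a family of membrane carriers that move charged organic molecules into and out of cells. The 9 genes described here (SLC22A2, SLC22A3, SLC22A4, SLC22A5, SLC22A6, SLC22A8, SLC22A17, SLC22A18 and SLC22A23) were taken by their names from a table of 27622 features. The choice was made with the values known, and SLC22A2 and SLC22A3 were set against the rest because both were higher in the r/r library. Their ratios between the libraries are therefore a description and were not tested.

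The tissue was the cochlear lateral wall, which holds the stria vascularis (SV), the vascular epithelium that secretes potassium into the endolymph. It was sequenced once from MITF R/r and once from MITF r/r, so that each genotype has 1 library. R/r stands for 1 copy of the mutant allele r, and r/r for the mutant allele on both chromosomes, as in the albino and deaf pigs of the Rongchang breed. The r allele carries short insertions in the distal part of the melanocyte promoter of MITF, the factor that melanocytes and their relatives in the SV, the intermediate cells, depend on. Both genotypes thus carry r, a R/R library was not analysed here, and the number of animals behind each library is not stated. The sample labels give the age of both as postnatal day 1, whereas the text of the study places the RNA-seq animals before birth. The comparison asks which transcripts differ between homozygous and heterozygous animals. There is no replicate check, so every difference below is between 2 libraries and not between genotypes.

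As background, the family falls into carriers of organic cations (SLC22A2 and SLC22A3), of carnitine and ergothioneine (SLC22A4, SLC22A5 and SLC22A16) and of organic anions (SLC22A6, SLC22A8 and their relatives), beside members whose cargo is less well known. The cation carriers take up histamine, other monoamines and many drugs by facilitated diffusion, and are best known from kidney and liver, where they pass cationic drugs to export pumps. Organic anion carriers of the family exchange their cargo for dicarboxylates in the kidney and are also found at the barriers of the brain.

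Expression is given in RPKM, the reads of a gene scaled to the length of its exon model and to the mapped reads of its library, so that levels of different genes can be set side by side. The whole reads behind the values were worked out from the table, with totals of 15829244 reads in the R/r library and 14258672 reads in the r/r library, so that 1 read on a gene of 1 kb is worth 0.0632 and 0.0701 RPKM. The reads given for a gene are the smallest that fit both of its values, and a multiple of them would fit as well. Levels set side by side also depend on the exon models. The length that these smallest reads imply is 548 bases for SLC22A6 and 2657 bases for SLC22A17. Intervals are 95% intervals (exact Clopper-Pearson for a ratio between libraries, exact Poisson for a level) and cover counting error only. The tissue carried the markers of its cell layers in both libraries, such as KCNE1 of marginal cells (278 and 248 RPKM), CLDN11 of basal cells (840 and 706 RPKM) and COCH of fibrocytes (6826 and 4914 RPKM). MITF itself, listed as 3 features, had log2 ratios between -0.51 and -0.45. The gene values do not separate its melanocyte isoform. Of the 13 genes of melanocytes and intermediate cells compared, 9 were lower in r/r by 2-fold or more. The summed level of the 15 listed was 379 RPKM in R/r and 67.1 RPKM in r/r. DCT, an enzyme of melanin synthesis, had 171 and 1.19 RPKM. MLANA was listed at 0 in r/r and had 12.03 RPKM in R/r, from 4 reads or a multiple of them. The other 4 of the 13 differed by less than 2-fold. Among them KIT had 43.6 and 44.2 RPKM (log2 ratio 0.02), which is most of the r/r sum. OCA2, SOX10 and SLC24A5 had log2 ratios of 0.04, -0.21 and -0.94.

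SLC22A2 and SLC22A3 were the members that differed most. SLC22A2 (ENSSSCG00000004040), the cation carrier known for the uptake of creatinine and metformin in the kidney, had 1.19 RPKM in the R/r library and 5.49 RPKM in the r/r library, from 56 and 233 reads. It was 4.62-fold higher in r/r, a log2 ratio of 2.21 (95% interval 1.78 to 2.66). SLC22A3 (ENSSSCG00000004039), the extraneuronal monoamine transporter, had 2.09 RPKM in R/r and 4.69 RPKM in r/r, from 126 and 255 reads. It was 2.25-fold higher, a log2 ratio of 1.17 (0.85 to 1.49). The level intervals in R/r and r/r were 0.898 to 1.54 RPKM and 4.81 to 6.24 RPKM for SLC22A2. For SLC22A3 they were 1.74 to 2.48 RPKM and 4.13 to 5.30 RPKM. Both genes were set apart for this difference, so nothing is read from the gap between the intervals. Of all genes compared, 25.1% had a ratio interval that excluded no change. The interval of SLC22A3 reached below 2-fold, and that of SLC22A2 lay wholly above it. In bulk tissue, more cells of a type and more RNA per cell cannot be told apart.

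**Figure D1:**
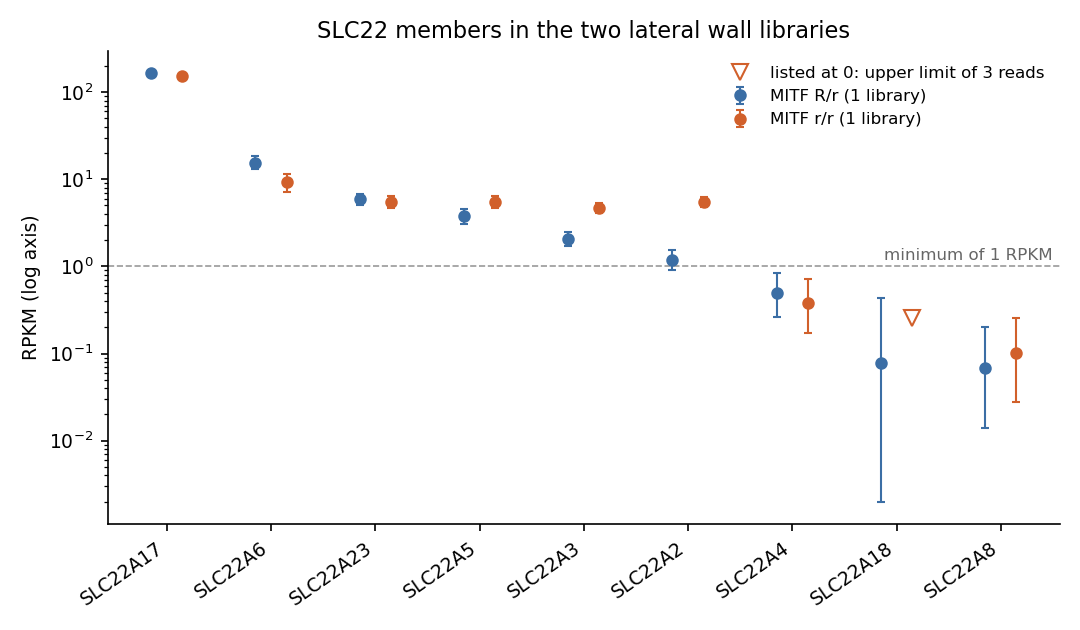
Levels of the 9 SLC22 members in RPKM on a log axis, R/r library in blue and r/r library in orange, with exact Poisson 95% intervals that cover counting error. SLC22A17 stands near 160 RPKM in both libraries, SLC22A2 and SLC22A3 are the members whose r/r points stand farthest above their R/r points, and SLC22A4, SLC22A8 and SLC22A18 lie under the minimum of 1 RPKM, with a triangle at 0.258 RPKM for the r/r value listed at 0.

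Across the table, 16331 genes were above 0 in both libraries with at least 1 RPKM in at least one, and 6 of the 9 members were among them. SLC22A4, SLC22A8 and SLC22A18 did not reach this minimum. A 2-fold difference, the threshold of the study, was reached by 3.99% of the genes compared, by 1.78% in the higher direction in r/r and by 2.20% in the lower. The study's own list of 2-fold genes is shorter, gives a p-value for each gene and holds no SLC22 gene. Among the members 2 of 6 were at least 2-fold higher and 0 were at least 2-fold lower, and since the members were chosen on this contrast nothing is read from that share. Just inside the threshold was SLC22A3, at 2.25-fold, and just outside it SLC22A6, 1.69-fold lower in r/r. The median log2 ratio of the 6 members was 0.22, beside -0.02 over all genes compared. It includes SLC22A2 and SLC22A3, set apart for being higher in r/r, so nothing is read from it either.

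The position of each ratio among all genes gives its scale. SLC22A2 and SLC22A3 were singled out for being higher in r/r, so their places follow from that choice and are not a test. Of the 16331 genes, 0.239% had a higher ratio than SLC22A2 and 1.21% a higher ratio than SLC22A3. Genes with few reads scatter most, so the same was counted among genes with between 0.5 and 2 times the reads of each. Among 4498 genes with a like number of reads, 0.111% had a higher ratio than SLC22A2. Among 4708 such genes, 0.531% had a higher ratio than SLC22A3. SLC22A6 stood toward the other end, with 2.77% of 4256 genes of like reads below it.

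**Figure D2:**
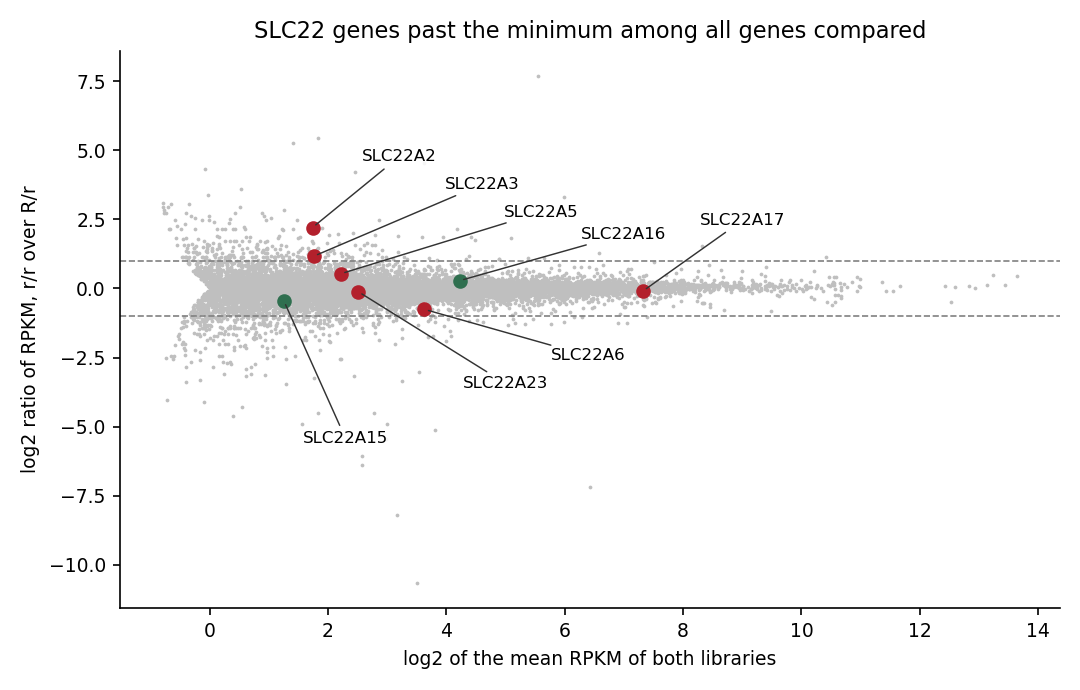
Log2 ratio of RPKM (r/r over R/r) against the log2 mean RPKM for the 16331 genes compared (grey), with SLC22 members in red, the other SLC22 genes past the minimum in green, and dashed lines at 2-fold. SLC22A2 (2.21) and SLC22A3 (1.17) lie above the upper line, and the other 6 SLC22 genes lie between the lines.

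Between SLC22A2 and SLC22A3, the listed order of levels was not the same in both libraries. SLC22A2 had 0.570 times the level of SLC22A3 in the R/r library and 1.17 times its level in the r/r library. In r/r their level intervals, 4.81 to 6.24 RPKM and 4.13 to 5.30 RPKM, overlapped, so their order there is not settled. Together SLC22A2 and SLC22A3 summed to 3.27 RPKM in R/r and 10.18 RPKM in r/r.

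SLC22A3 and SLC22A2 follow one another on the chromosome, and values of genes around them are given beside theirs. Gene order was taken from the RefSeq annotation of Sscrofa11.1, a later assembly than the one used for alignment, so no coordinates are given. On the side of SLC22A3, the nearest gene is PLG, which encodes plasminogen and had 1 read in R/r and none in r/r. Beyond it lie MAP3K4, a stress kinase, with 7.51 RPKM in R/r and 7.17 RPKM in r/r (log2 ratio -0.07, -0.35 to 0.22), and AGPAT4, a phospholipid enzyme, with 2.24 and 1.71 RPKM (-0.39, -1.24 to 0.44). Farther out on the side of SLC22A2, 2 places from it, lies IGF2R, the scavenger receptor of IGF2, with 16.2 RPKM in R/r and 15.1 RPKM in r/r (-0.10, -0.31 to 0.11). MAS1, next to IGF2R, was listed at 0 in both. The gene between SLC22A2 and IGF2R is not reported here, so the whole region is not described. The intervals of MAP3K4, AGPAT4 and IGF2R, the 3 genes described here with enough reads, spanned no change.

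Over all members, 35 different protein-coding genes were considered within 3 places in this order, 24 of them were in the table, and 20 passed the minimum. None of the 20 was 2-fold apart, with log2 ratios from -0.91 (CHRM1) to 0.61 (IL25). Over all genes compared the share was 3.99%, so nothing is read from this count. Of 6891 pairs of adjacent genes in which both passed the minimum, 3 had both genes at least 2-fold higher in r/r, and 1 had both at least 2-fold lower. SLC22A2 and SLC22A3 are 1 of the 3 pairs, by the way they were chosen.

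**Figure D3:**
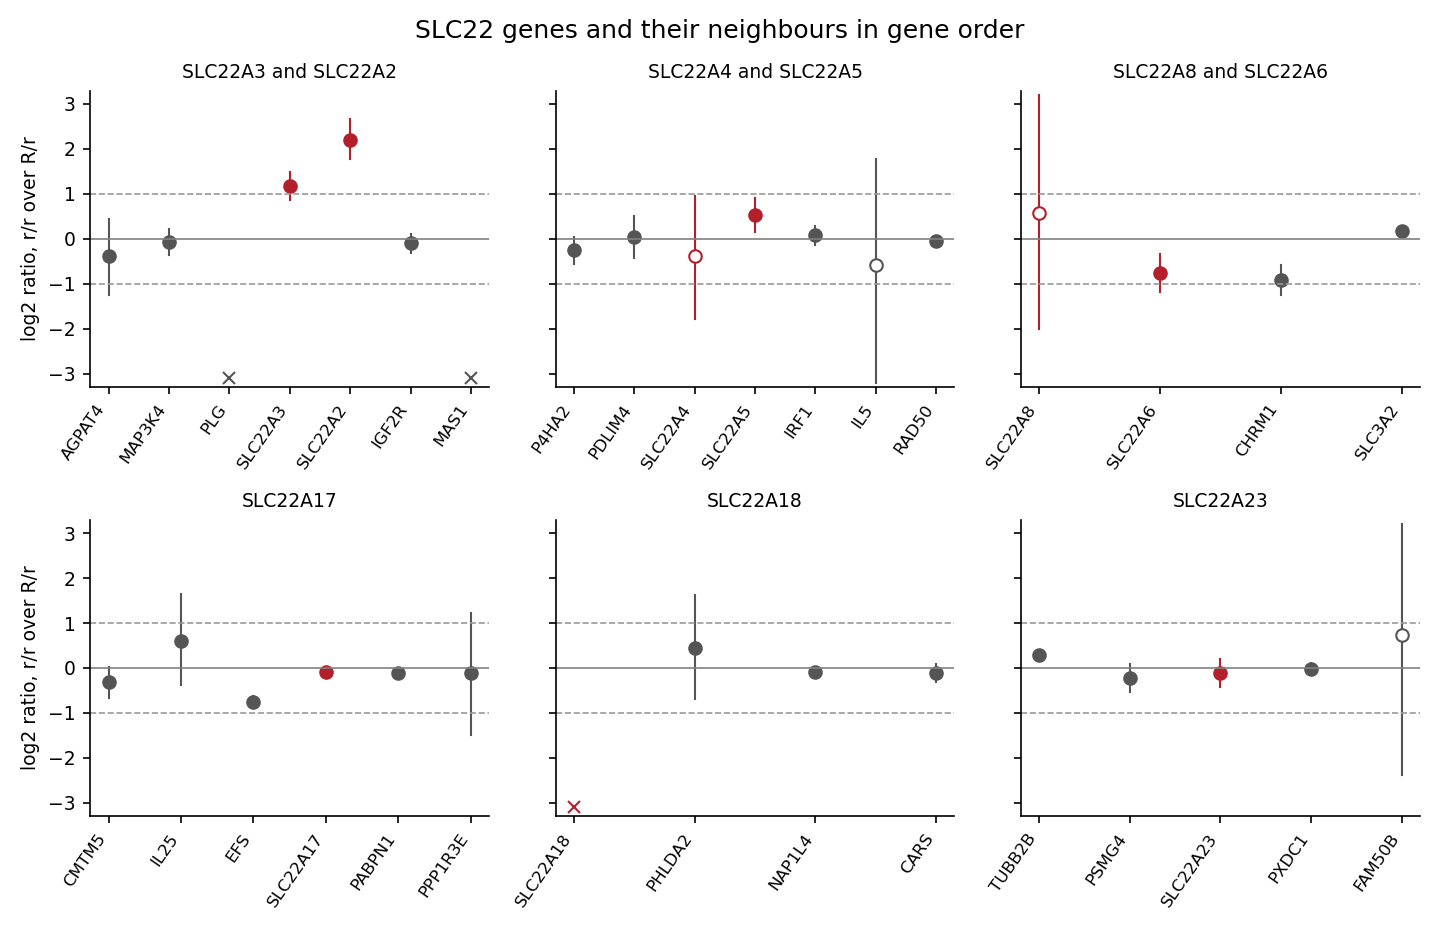
Log2 ratio (r/r over R/r) of each member (red) and of the protein-coding genes considered within 3 places of it in gene order (grey). Bars are 95% counting intervals and dashed lines mark 2-fold. Open circles are genes under the minimum, and crosses at the lower edge are genes listed at 0 in at least one library. SLC22A3 and SLC22A2 lie above the 2-fold line between MAP3K4 (-0.07) and IGF2R (-0.10), and the neighbour farthest from 0 among those past the minimum is CHRM1 (-0.91).

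The carnitine branch differed less. SLC22A5 (ENSSSCG00000014276), the high-affinity carnitine carrier of the plasma membrane, had 3.80 RPKM in R/r and 5.50 RPKM in r/r, from 105 and 137 reads. It was 1.45-fold higher in r/r, a log2 ratio of 0.53 (0.16 to 0.92). The adjacent SLC22A4 (ENSSSCG00000014275), the ergothioneine carrier, had 0.496 RPKM in R/r and 0.381 RPKM in r/r, from 13 and 9 reads. Its ratio of -0.38 had an interval of -1.79 to 0.96, so that no difference was detectable at this depth. SLC22A16 (ENSSSCG00000004399), a carnitine carrier known from testis that is not among the 9, was the second most abundant gene of the family, with 16.9 RPKM in R/r and 20.5 RPKM in r/r (log2 ratio 0.28, 0.09 to 0.48). Around SLC22A4 and SLC22A5, the past-minimum neighbours P4HA2, PDLIM4, IRF1 and RAD50 had log2 ratios of -0.26, 0.05, 0.08 and -0.05.

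The organic anion carriers were represented by 1 gene. SLC22A6 (ENSSSCG00000023571), the para-aminohippurate carrier of the proximal tubule, had 15.6 RPKM in R/r and 9.21 RPKM in r/r, from 135 and 72 reads. It was lower in r/r, with a log2 ratio of -0.76 (-1.19 to -0.33) and level intervals of 13.0 to 18.4 RPKM and 7.21 to 11.6 RPKM. A ratio interval wholly below no change was found for 14.1% of all genes compared. SLC22A8 (ENSSSCG00000029516), its neighbour and partner in the kidney, had 0.0683 RPKM in R/r and 0.101 RPKM in r/r, from 3 and 4 reads. Its level intervals, 0.0141 to 0.1997 RPKM and 0.0276 to 0.259 RPKM, overlapped, and both lay far below those of SLC22A6. The interval of its log2 ratio, from -2.00 to 3.34, spanned no change. Of the other anion carriers, SLC22A7 had 1 and 2 reads, and SLC22A11, SLC22A12 and SLC22A13 were listed at 0 in both libraries. CHRM1, a muscarinic receptor gene on the far side of SLC22A6, had 5.06 RPKM in R/r and 2.70 RPKM in r/r (log2 ratio -0.91, -1.25 to -0.57), and SLC3A2 beyond it had 131 and 147 RPKM.

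SLC22A17 (ENSSSCG00000002025), described as a receptor for the iron-binding protein lipocalin 2, dominated the family. It had 165 RPKM in R/r and 155 RPKM in r/r, from 6940 and 5869 reads, with a log2 ratio of -0.09 (-0.14 to -0.04). This made up 77.1% of the summed RPKM of the 16 SLC22 genes considered in R/r, and 74.3% in r/r. Lower ratios were found in 36.9% of all genes compared, and in 21.1% of 587 genes with a like number of reads. LCN2, which encodes lipocalin 2, had 105 RPKM in R/r and 51.3 RPKM in r/r, a log2 ratio of -1.04 (-1.16 to -0.91). The receptor and its ligand therefore had unequal ratios in the same pair of libraries. Next to SLC22A17, EFS had 30.2 RPKM in R/r and 17.95 RPKM in r/r (log2 ratio -0.75, -0.89 to -0.62), and PABPN1 on the other side had 153 and 141 RPKM.

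SLC22A23 and SLC22A18 complete the members. SLC22A23 (ENSSSCG00000001004), a carrier without an established cargo, had 5.94 RPKM in R/r and 5.48 RPKM in r/r, from 189 and 157 reads. Its log2 ratio of -0.12 had an interval of -0.43 to 0.20, the only one of the 6 members past the minimum to span no change. SLC22A18 (ENSSSCG00000012855), an imprinted gene, had 0.0774 RPKM in R/r, from 1 read, and was listed at 0 in r/r, where a limit of 3 reads stands for 0.258 RPKM and the exact Poisson limit is 0.317 RPKM. Some genes that cells in general use, such as FTL, are also listed at 0 in this table. Of the family outside the 9, SLC22A15 had 2.75 and 2.02 RPKM (log2 ratio -0.45, -0.76 to -0.14) and SLC22A14 had 1 and 2 reads. Another 7 family names on the list were not matched to a feature.

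**Figure D4:**
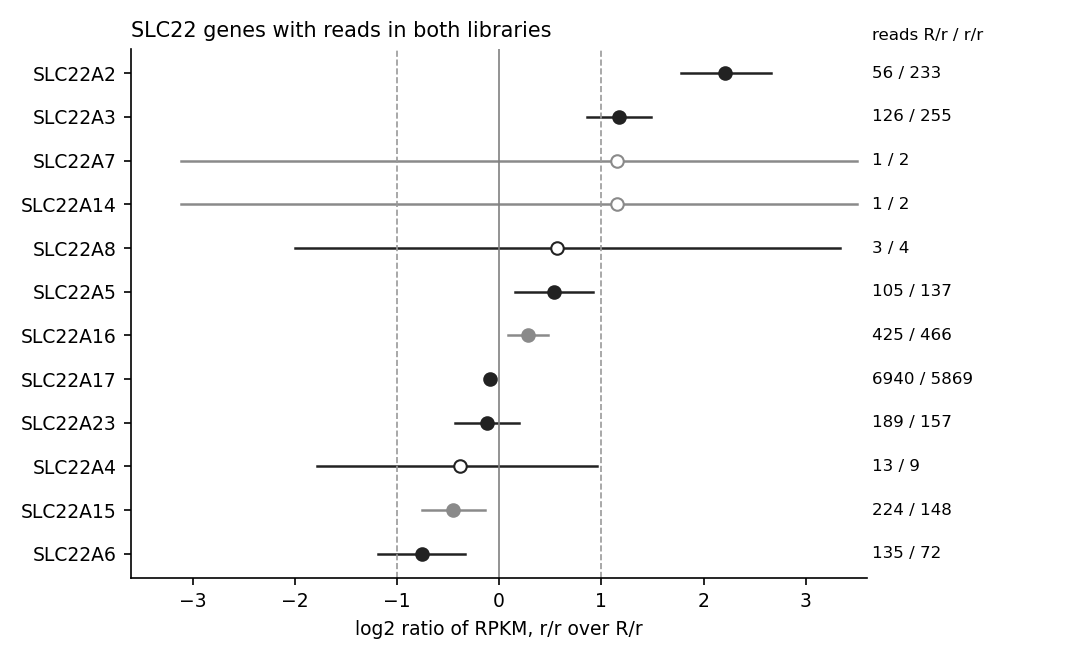
Log2 ratio of RPKM (r/r over R/r) with its exact 95% counting interval for the SLC22 genes with reads in both libraries, members in black and other genes of the family in grey, open circles for genes under the minimum, dashed lines at 2-fold, and reads at the right. Intervals wider than the axis end at its edge. SLC22A2 and SLC22A3 stand above 1, SLC22A6 has the lowest ratio at -0.76, and the genes with open circles have intervals that span no change.

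Counting error alone separated more members than the 2-fold threshold did. The interval lay wholly above no change for 3 members (SLC22A2, SLC22A3 and SLC22A5) and wholly below it for 2 (SLC22A6 and SLC22A17). Over all genes compared, 25.1% had an interval without no change, 11.0% above and 14.1% below. SLC22A17 is an example of what depth does here, since a difference of 1.07-fold passed with its 12809 reads.

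The order of levels also differed between the libraries. In R/r the family descended from SLC22A17 through SLC22A16, SLC22A6, SLC22A23, SLC22A5, SLC22A15 and SLC22A3 to SLC22A2, and of these neighbours in the order SLC22A16 and SLC22A6 did not differ beyond counting error (16.9 and 15.6 RPKM, interval of their ratio 0.890 to 1.32). In r/r, SLC22A2 stood at rank 5 in place of rank 8. There SLC22A5, SLC22A2 and SLC22A23 had 5.50, 5.49 and 5.48 RPKM, and SLC22A3 followed with 4.69 RPKM. None of these neighbours in the order differed beyond counting error, with an interval of 0.815 to 1.23 for SLC22A2 over SLC22A23 and of 0.953 to 1.43 for SLC22A23 over SLC22A3. Without SLC22A17, the summed family was 48.9 RPKM in R/r and 53.6 RPKM in r/r. Of that sum SLC22A2 and SLC22A3 held 6.69% in R/r and 18.98% in r/r, and the anion carriers 32.0% and 17.5%.

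Genes that work beside these carriers were described by lists. Of 6 genes of organic cation and monoamine transport past the minimum, 0 were 2-fold apart, and the median log2 ratio was -0.09. SLC47A2, an export pump for organic cations, had 9.51 RPKM in R/r and 8.18 RPKM in r/r, from 306 and 237 reads (log2 ratio -0.22, -0.47 to 0.03). The choline carriers SLC44A2 (315 and 304 RPKM) and SLC44A1 (41.5 and 44.2 RPKM) were the most abundant, and SLC5A7, the choline carrier of cholinergic neurons, had 6.32 and 6.04 RPKM. Below the minimum, 6 further genes of the list had too little signal to be compared, among them SLC18A1, a vesicular monoamine carrier, with 0.121 and 0.446 RPKM from 3 and 10 reads (log2 ratio 1.89, -0.07 to 4.39).

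The 3 enzymes of monoamine degradation described all passed the minimum, and none was 2-fold apart. HNMT, which methylates histamine inside cells, had 19.98 RPKM in R/r and 30.4 RPKM in r/r, from 499 and 683 reads, a log2 ratio of 0.60 (0.43 to 0.77). MAOB had 55.1 and 63.9 RPKM (0.22, 0.06 to 0.38), and MAOA had 29.9 and 28.2 RPKM (-0.09, -0.27 to 0.10). The median of these ratios was 0.22, beside -0.02 for all genes.

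Of 10 genes of organic anion transport past the minimum, 0 were 2-fold higher and 1 was 2-fold lower in r/r, with a median of -0.09. That gene was ABCC3, an export pump, at 5.62 and 2.49 RPKM from 5 and 2 reads or a multiple of them (log2 ratio -1.17, -4.56 to 1.44). The abundant anion carriers stayed near equal, with SLCO1A2 at 121 and 135 RPKM, SLCO1C1 at 67.9 and 66.6 RPKM, SLCO2B1 at 41.5 and 39.8 RPKM, and ABCC5 at 33.8 and 35.2 RPKM. These 4 genes stood above SLC22A6 in both libraries on the RPKM scale, and others of the list, such as SLCO2A1 (3.94 and 2.01 RPKM) and ABCC1 (2.99 and 2.19 RPKM), stood below it.

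Carnitine handling gave 17 genes past the minimum, of which 0 were 2-fold apart, and their median log2 ratio was -0.02. The most abundant were HADHA (70.8 and 71.0 RPKM) and HADHB (52.4 and 51.8 RPKM) of mitochondrial fatty acid oxidation, CRAT (70.0 and 67.8 RPKM), which loads carnitine with acetyl groups, and ALDH9A1 (63.7 and 65.3 RPKM) of carnitine synthesis. Their ratios were smaller than that of SLC22A5. In the list of lipocalin 2 and iron handling, LCN2 was the 1 gene of 6 that was 2-fold lower, and the median was 0.11. FTH1, the ferritin heavy chain, had 2403 and 2846 RPKM, TFRC, the transferrin receptor, had 79.5 and 95.4 RPKM, BDH2 had 26.9 and 29.0 RPKM, and HMOX1 had 19.9 and 21.3 RPKM.

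For the imprinted domain that holds SLC22A18, 5 genes passed the minimum, 0 were 2-fold apart, and the median log2 ratio was -0.09. CD81 had 155 and 139 RPKM, NAP1L4 had 60.2 and 56.4 RPKM, and CARS had 11.2 and 10.4 RPKM. IGF2 had 2.59 and 4.68 RPKM from 8 and 13 reads, with an interval of its log2 ratio from -0.53 to 2.33.

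**Figure D5:**
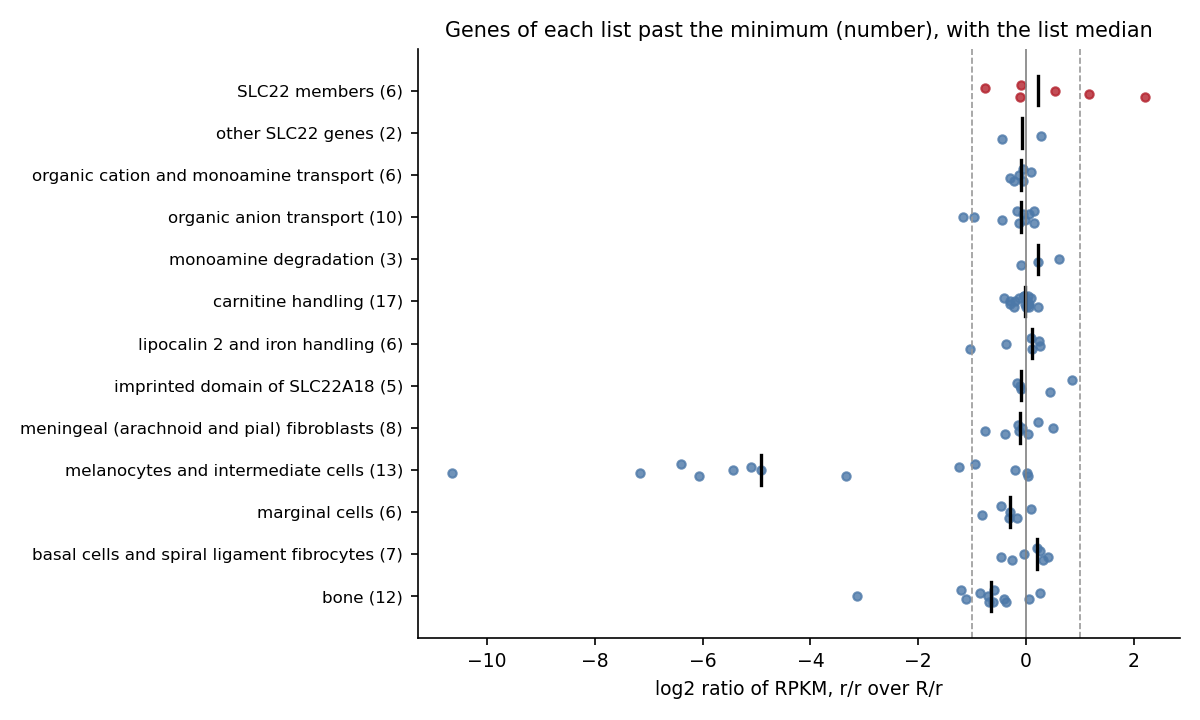
Log2 ratio of RPKM (r/r over R/r) of each gene past the minimum, by list, with the number of such genes in brackets, the list median as a black bar and dashed lines at 2-fold. The 4 SLC22 members other than SLC22A2 and SLC22A3 and all genes of the transport, monoamine and carnitine lists except ABCC3 lie between the dashed lines, and the melanocyte and intermediate cell genes reach -10.6.

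Cell type lists were described in the same pair of libraries. SLC22A6 and other solute carriers are known from the fibroblasts of the meninges, and of 8 genes of that list past the minimum 0 were 2-fold apart. Of these 8, 3 were higher and 5 were lower in r/r, with a median log2 ratio of -0.11, beside -0.02 over all genes compared. Summed levels were 1461 RPKM in R/r and 1465 RPKM in r/r over the 10 genes found, none at 0. The most abundant were ALDH1A1 (533 and 622 RPKM), IGFBP2 (297 and 281 RPKM), CDH1 (226 and 206 RPKM) and SLC13A4 (187 and 143 RPKM). Among these ALDH1A1 alone was higher in r/r, so the near equal sums do not describe the single genes. The ratio interval lay wholly below no change for 4 of the 8 and wholly above it for 2. The solute carrier SLC6A20 had 5.58 RPKM in R/r and 3.27 RPKM in r/r (log2 ratio -0.77, -1.49 to -0.08). Bone genes were lower in r/r, with summed levels of 1071 and 706 RPKM, 3 of 12 at least 2-fold lower, 0 higher and none at 0. The 3 were MEPE (3.43 and 0.388 RPKM) and DMP1 (59.99 and 27.9 RPKM) of osteocytes, and COL1A1 (89.1 and 38.5 RPKM), the main collagen of bone. The 6 marginal cell genes summed to 1922 and 1442 RPKM with 0 of them 2-fold apart and none at 0. The 8 genes of basal cells and spiral ligament fibrocytes summed to 9841 and 8364 RPKM, a difference carried by COCH, while 4 of the 7 past the minimum had a higher value in r/r and their median log2 ratio was 0.19. None of the 7 was 2-fold apart and none of the 8 was at 0. The part of these differences in the ratios of the SLC22 genes was not tested, and with 1 library each the genotype, the animal and the dissection cannot be told apart.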

How the data were processed

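The lateral wall of the cochlea was sequenced in 1 library per genotype. Per the submitters' processing notes and the study's methods, the authors mapped the read pairs with TopHat2 2.0.7 against Sscrofa10.2 and deposited 1 RPKM value per gene and library. The counting program, the gene annotation and the treatment of reads that map to more than one place are not given in the sources used here. The 2 columns without headings were not used.

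No pseudocount was added to the ratios. A gene was compared when neither library listed it at 0 and one of them reached 1 RPKM. Whole reads were recovered from the commonest ratio between values and from library totals that make gene lengths whole, within 0.0005 bases or the rounding of the values. This held for 98.1% of 20862 features above 0. The steps were also run on reads simulated with the recovered totals and lengths, which cannot tell whether those totals and lengths are right. A gene was named by the table's symbol, else by its description or the Ensembl name. Of features with one symbol, that with the highest mean RPKM was kept. Named are the SLC22 genes considered, list genes at least 2-fold apart, up to 4 further genes of a list by level, and neighbours. Of melanocyte genes at least 2-fold apart or listed at 0, only DCT and MLANA are named, chosen after their values were seen. Markers of the tissue and of cell lists named beside these were chosen after their values were seen, as were SLC18A1, SLCO2A1, ABCC1, MYH7 and CDH19 and the neighbours EFS, PABPN1, CHRM1 and SLC3A2 and those around SLC22A4 and SLC22A5. The members and lists were chosen with earlier results of these data known. Sequences were not used here, and some genes are not reported. The software was scipy 1.17.1, pandas 2.3.3 and numpy 2.4.6 under Python 3.11.15, with matplotlib 3.10.9 for plots.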

Additional observations from a re-analysis of the deposited data

How the results depend on the processing

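No paired analysis was possible because each genotype has a single library. The members at least 2-fold apart numbered 2 and became 1 with a pseudocount of 1 RPKM, with a minimum of 5 RPKM and with a 4-fold threshold. In each of these it was SLC22A2, which passes the minimum of 5 RPKM through the r/r library alone, so that its place there follows from the filter. The number was 3 with a 1.5-fold threshold, with SLC22A6 lower in r/r, and 2 under a pseudocount of 0.1 RPKM, no minimum, the 3 other scalings and Ensembl features alone. The log2 ratio of SLC22A2 was 1.57 with a pseudocount of 1 RPKM, which pulls low values together by construction. Under the other planned settings it lay between 2.12 and 2.25. That of SLC22A3 was 0.88 with a pseudocount of 1 RPKM, below 2-fold, and between 1.13 and 1.21 under the others.

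The median log2 ratio of the members, 0.22, was -0.09 with a minimum of 5 RPKM. Over all genes the number at least 2-fold apart, 651, became 317 with a pseudocount of 1 RPKM, 1483 with no minimum, 178 with a minimum of 5 RPKM, 1771 at 1.5-fold and 130 at 4-fold. The minimum and the threshold act by construction. Scaling to the median, to the upper quartile or as TPM shifted the median of all genes by 0.04, 0.01 and -0.04 on the log2 scale. Of 36 other member values under alternatives 36 stayed within their counting interval. No counting interval is given for list medians, of which 6 of 126 were scored as moved. The sign of a value at least 2-fold apart changed in 0 cases. The alternative scoring of protein alignments was not run, since sequences were not used here. Depth limits SLC22A4, SLC22A8 and SLC22A18, which had no more than 22 reads over both libraries. The ends of the interval of SLC22A2, an alternative added after seeing the data, were 1.78 and 2.66.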

Other observations

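The remaining cell type lists were described in the same way. The muscle genes summed to 76.0 RPKM in R/r and 95.1 RPKM in r/r, although 5 of the 7 past the minimum were lower in r/r and their median log2 ratio was -0.25. The higher sum came from MYH6 and from MYH7, which had 18.3 and 26.3 RPKM. Of 7 genes of skeletal and heart muscle past the minimum, MYH6, a heart myosin, was 2-fold higher in r/r (19.2 and 40.1 RPKM), and MYH8 and TNNT1 were 2-fold lower (2.98 and 0.445 RPKM, and 6.66 and 3.16 RPKM). ACTA1 and MYL1 of that list were listed at 0 in R/r, and MYL1 also in r/r. Of Schwann cell genes, S100B, which other cells also express, had 6091 and 6272 RPKM. CDH19 had 0.874 RPKM in R/r, from 1 read or a multiple of it, and was listed at 0 in r/r. The list is not described as a whole.

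Macrophage genes (8 past the minimum), capillary endothelium and pericyte genes (7) and red blood cell genes (5) had 0 genes 2-fold apart, with median log2 ratios of -0.13, -0.01 and -0.28. Their summed levels were 58.7 and 54.5 RPKM, 379 and 366 RPKM, and 3052 and 2464 RPKM, and no gene of these lists was at 0. The part of these lists in the ratios of SLC22A2 and SLC22A3 was not tested.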
